A study of Mus musculus with 26 samples.

Results

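The Oog and Prame-like genes described here are Oog1, Oog2, Oog3, Oog4, BC061212, B020004J07Rik, Pramel6, Pramel7 and Gm12794. They were chosen as a fixed list of symbols, and all 9 were found among the 24412 gene symbols of the deposited tables. RNA was measured by polyA RNA-seq in 26 libraries from pools of 12 to 20 C57BL/6J mouse oocytes or embryos, in 13 groups of 2 libraries. Maternal double-knockout (mDKO) samples and controls were taken at 3 stages without injection: MII oocytes, the early 2-cell stage (E2C) and the late 2-cell stage (L2C). The mDKO samples come from females whose floxed Kdm3a and Kdm3b alleles are deleted by Zp3-Cre, a transgene active in growing oocytes, and embryos were made by in vitro fertilisation with wild-type sperm. They therefore lack the maternal supply of KDM3A and KDM3B, which remove methyl groups from histone H3 lysine 9, while the paternal alleles are intact. The titles of the L2C knockout libraries say only DKO, while their genotype label calls the deletion maternal, and they are taken as mDKO. The sources used here do not name the alleles of the control females. Injected E2C groups were mDKO embryos with Kdm3aWT, mDKO embryos with Kdm3aHA, mDKO embryos with mCherry and control embryos with mCherry. Injected 4-cell (4C) groups were wild-type embryos with Kdm3aWT, Kdm3aHA or mCherry. The sources used here do not say what HA stands for.

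Genes of the PRAME family encode leucine-rich repeat proteins and lie in large clusters in the mouse genome, many of them nearly identical to each other. Oog1 (oogenesin 1) is known for its expression in mouse oocytes and early embryos, and Oog2, Oog3 and Oog4 are its relatives. In mouse embryonic stem cells, Pramel6 and Pramel7 favour self-renewal, and Pramel7 is known to direct the degradation of UHRF1, the factor that recruits the maintenance DNA methyltransferase. RefSeq names BC061212 as Pramel37, B020004J07Rik as Pramel17 and Gm12794 as Pramel19, and no role is attached to these here. At fertilisation the embryo holds RNA loaded during oocyte growth, and its own genome becomes active at the 2-cell stage, so a transcript seen in an embryo may be a maternal remnant, new RNA or both.

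Values are in TPM, a measure of transcript abundance that shares out the same total in every library after correction for transcript length, so levels can be compared between genes, but the read depth is unknown. In these bulk pools, fewer embryos with a transcript and less transcript per embryo cannot be told apart. The deleted genes matched the labels. Kdm3a lay at 0.718 to 0.725 TPM in mDKO oocytes and at 8.08 to 8.83 TPM in control oocytes, and Kdm3b at 1.75 to 1.87 TPM in mDKO oocytes and at 24.97 to 26.6 TPM in control oocytes. Kdm3a reached 2315 to 4122 TPM in E2C embryos injected with Kdm3aWT and 3907 to 4043 TPM in those injected with Kdm3aHA, against 0.262 to 0.411 TPM in mDKO embryos injected with mCherry. At L2C, Kdm3a was at 26.3 to 28.4 TPM in mDKO embryos and at 34.1 to 43.8 TPM in controls. Between 7649 and 12396 genes reached 1 TPM per library. The fewest were in replicate 2 of the 4C embryos injected with mCherry, which also stood apart from its replicate 1 in the levels of Pramel6, Pramel7 and B020004J07Rik.

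In the mouse assembly GRCm38, with gene positions from GENCODE M21, 5 of the 9 genes lie on chromosome 4. Oog4 is at chr4:143437164-143450324, Oog3 at chr4:144157557-144162663 and Oog2 at chr4:144190719-144196934. B020004J07Rik is at chr4:101834969-101844023 and Gm12794 at chr4:101940407-101943183. Pramel7 (chr2:87489087-87497093) and Pramel6 (chr2:87506565-87510872) lie close together, BC061212 is at chr5:94066151-94070545 and Oog1 at chr12:87602688-87608850. The RefSeq promoter table, build GRCm38.p6, gave the 250 bases before and 50 bases after the start site for all 9 genes. RefSeq and GENCODE starts can differ. For Pramel7, the bases before the RefSeq start (chr2:87492419-87492538, minus strand) lie inside its GENCODE gene, so its lack of motifs may not concern its GENCODE start. The 120 bases before the start are printed for the 4 Oog genes, which share a block, and for BC061212 and B020004J07Rik, which do not hold it as an exact match. Capitals mark the block GGGTGTGGCNACAAAGGGA and the TATA-type motifs TATATA and TATAAA, which overlap each other in part. The windows are chr12:87602545-87602664 on the plus strand for Oog1, chr4:144190597-144190716 on the plus strand for Oog2, chr4:144162652-144162771 on the minus strand for Oog3 and chr4:143450325-143450444 on the minus strand for Oog4. Those of BC061212 (chr5:94070546-94070665) and B020004J07Rik (chr4:101844023-101844142) are on the minus strand. Each is written 5′ to 3′ on its gene's strand.
Oog1: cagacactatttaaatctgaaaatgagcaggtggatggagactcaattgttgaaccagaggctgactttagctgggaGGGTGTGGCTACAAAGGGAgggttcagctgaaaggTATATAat
Oog2: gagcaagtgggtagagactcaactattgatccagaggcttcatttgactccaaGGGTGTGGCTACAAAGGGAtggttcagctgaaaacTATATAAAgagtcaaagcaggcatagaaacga
Oog3: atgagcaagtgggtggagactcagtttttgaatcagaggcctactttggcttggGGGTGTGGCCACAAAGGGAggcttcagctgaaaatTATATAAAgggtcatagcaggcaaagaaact
Oog4: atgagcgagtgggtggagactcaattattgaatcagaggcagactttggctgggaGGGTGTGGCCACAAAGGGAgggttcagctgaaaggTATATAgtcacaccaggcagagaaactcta
BC061212: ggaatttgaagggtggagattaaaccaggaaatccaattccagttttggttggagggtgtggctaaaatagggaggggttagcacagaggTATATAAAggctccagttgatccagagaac
B020004J07Rik: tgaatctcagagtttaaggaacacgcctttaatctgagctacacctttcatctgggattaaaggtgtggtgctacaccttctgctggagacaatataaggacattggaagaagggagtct

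The block GGGTGTGGCNACAAAGGGA began 43 bases before the RefSeq start site in Oog1, 67 in Oog2, 66 in Oog3 and 65 in Oog4. The GENCODE start of Oog1, at chr12:87602688, lies downstream of its RefSeq start, so the shorter distance in Oog1 depends on the start used. The block is the longest ungapped stretch that these 4 windows share with at most 1 differing base, so its presence in them is a description. Searched on both strands of whole promoters, the block was found in 8 of 32851 promoters (0.0244%) and in 7 of the 43 promoters with a Prame or Oog name (16.3%). The 7 include Oog1 to Oog4, which defined the block, so their part of this share was fixed in advance. The remaining promoter of the 8 is that of Gm2042, a near-identical copy of Oog1. Only exact matches were counted, and the promoter of Pramel6 holds a similar stretch, gggtgtagctacaaagggg, that was not. The printed window of BC061212 also holds a similar stretch, gggtgtggctaaaataggga, that was not counted. TATATA, searched on both strands like the other motifs, was found in 5 of the 9 promoters, those of Oog1, Oog2, Oog3, Oog4 and BC061212, against 5.67% of all promoters and 48.8% of the family. TATAAA was in 3 of 9 (Oog2, Oog3 and BC061212), against 13.6% of all promoters and 34.9% of the family. TAATTG, an element bound by the oocyte factor NOBOX, was in Oog3 and Oog4 (8% of all promoters, 30.2% of the family). GGATTA, a homeobox core, was in B020004J07Rik (7.06% of all, 14% of the family). TGATTG, an LHX8 element, was in none of the 9 (14% of all, 20.9% of the family), nor was AAGGTCA, an element bound by some nuclear receptors (4.72% of all, 2.33% of the family).

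Across stages the 9 genes fell into those present in oocytes and those nearly silent there. By the stage of the highest control level, Oog1 alone would count as oocyte-loaded, since its mean in control samples was highest at MII, and the other 8 peaked in 2-cell embryos. Oog2, Oog3 and Oog4, however, were at 49.6 TPM or more in every MII library and higher still at E2C. The genes are therefore described in a split chosen after the levels were seen: Oog1 to Oog4, with 10 TPM or more in control MII oocytes, are called loaded, and the other 5 not loaded. The lowest of the loaded genes was Oog2, with a control MII mean of 53.0 TPM, and the highest of the others was Gm12794, with 3.88 TPM. The plot of TPM by library shows both sets.

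**Figure D1:**
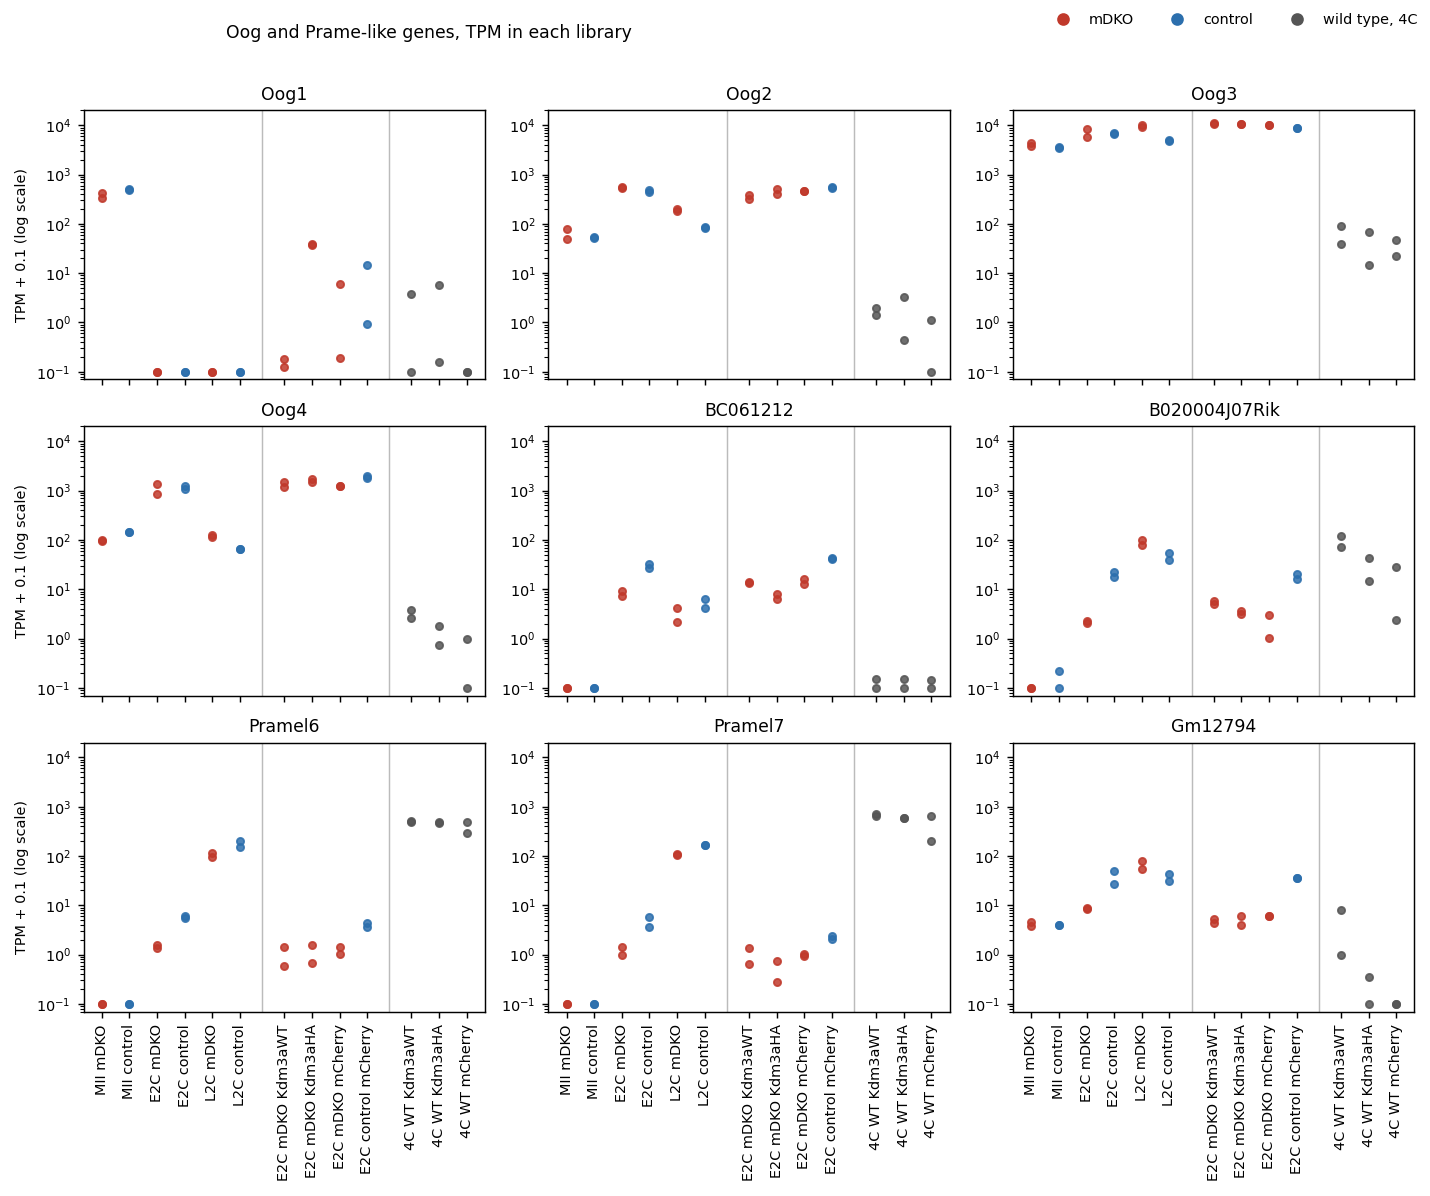
TPM + 0.1 (log axis) of each of the 9 genes in each of the 26 libraries, 1 point per library, with mDKO in red, control in blue and wild-type 4C in grey. Oog2, Oog3 and Oog4 were present in every MII, E2C and L2C library and low at 4C, whereas Pramel6 and Pramel7 were listed at 0 at MII and lay at 289 to 517 TPM and 202 to 718 TPM at 4C.

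Oog3 was the most abundant of the 9 genes in every MII, E2C and L2C library. In controls it had 3649 and 3523 TPM at MII, 6728 and 7039.6 TPM at E2C, and 4930.4 and 4851 TPM at L2C. It ranked between 7 and 28 among all genes in these 3 stages and in injected E2C embryos, where it lay between 8827 and 11043 TPM. At 4C, in another table and in wild-type embryos, it lay between 14.8 and 88.8 TPM and ranked between 1601 and 3729. Oog3 thus stood among the most abundant transcripts in oocytes and 2-cell embryos and not at 4C.

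Oog2 had 54.5 and 51.5 TPM in control MII oocytes, 440.0 and 495 TPM at E2C, and 87.1 and 82.6 TPM at L2C. Oog4 had 145 and 142 TPM at MII, 1229 and 1089.8 TPM at E2C, and 64.7 and 66.7 TPM at L2C. Both were highest at E2C with no overlap between stages, and both were at or under 3.72 TPM in the 4C libraries. The E2C over MII change on the log2(TPM + 1) scale was 3.12 ± 0.12 for Oog2, 0.94 ± 0.08 for Oog3 and 3.003 ± 0.11 for Oog4 (± SE here and below). These stage differences come from the same libraries that set the classes. MII and E2C libraries were made with different kits, so stage and kit cannot be told apart. The sources used here name no kit for L2C, so whether the kit differs between E2C and L2C is unknown. In the comparison of E2C with MII 74% of 13486 genes were called, 35.9% higher and 38.1% lower.

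The 5 genes that were not loaded were higher at E2C than at MII, and then parted. BC061212, listed at 0 in all 4 MII libraries, had 27.5 and 32.6 TPM in control E2C embryos and 6.15 and 4.01 TPM in control L2C embryos, an early and short peak. B020004J07Rik had 0 and 0.123 TPM at MII, 17.7 and 22.4 TPM at E2C, and 54.6 and 38.8 TPM at L2C. Gm12794 had 3.92 and 3.85 TPM at MII, 26.7 and 49.4 TPM at E2C, and 42.6 and 30.5 TPM at L2C. B020004J07Rik was thus higher again at L2C, whereas the E2C and L2C libraries of Gm12794 overlapped. Pramel6, listed at 0 at MII, had 6.03 and 5.38 TPM at E2C, and 199.7 and 155 TPM at L2C. Pramel7, also listed at 0 at MII, had 5.76 and 3.52 TPM at E2C, and 168 and 164 TPM at L2C. Pramel6 and Pramel7 were the late pair, with L2C over E2C changes of 4.72 ± 0.20 and 4.91 ± 0.23, where 68.2% of genes were called, 36.7% higher and 31.5% lower.

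In control oocytes the order of mean levels was Oog3, Oog1, Oog4, Oog2, Gm12794, B020004J07Rik, with BC061212, Pramel6 and Pramel7 listed at 0, and no neighbours above 0 overlapped. In control E2C embryos it was Oog3, Oog4, Oog2, Gm12794, BC061212, B020004J07Rik, Pramel6, Pramel7, Oog1, and Gm12794 overlapped with BC061212 and Pramel6 with Pramel7. In control L2C embryos it was Oog3, Pramel6, Pramel7, Oog2, Oog4, B020004J07Rik, Gm12794, BC061212, with Oog1 listed at 0. Pramel6 and Pramel7 overlapped there, as did B020004J07Rik and Gm12794. The summed level of Oog1 to Oog4 was 4331 and 4230.3 TPM in control oocytes, 8397 and 8624 TPM at E2C and 5082 and 5001 TPM at L2C, while that of the other 5 was 3.92 and 3.97 TPM, 83.7 and 113 TPM, and 471 and 392.4 TPM at the same stages.

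Oog1 needs its copies beside it. It had 331 and 418 TPM in mDKO oocytes, against 483 and 514 TPM in control oocytes, and was then listed at 0 in 7 of the 8 uninjected 2-cell libraries and at 0.00132 TPM in the remaining control E2C library. Transcripts of Gm2042, Gm10436 and C87977 are 99.55%, 98.82% and 95.38% identical to that of Oog1 over nearly its whole length, so reads can be assigned to any of them. In control E2C embryos, Gm2042 had 5310.2 and 5658 TPM and Gm10436 had 4217 and 4349 TPM. The sum of the 4 genes was 1679 and 1862 TPM in control oocytes, 10582 and 10992 TPM in control E2C embryos and 4340.2 and 4305 TPM in control L2C embryos. The sum was thus higher at E2C than at MII by 2.61 ± 0.09 (adjusted p = 5.93e-07, limma), while Oog1 alone goes the other way. Oog1 made up 19.8% and 24.9% of the sum in mDKO oocytes, 28.7% and 27.6% in control oocytes and at most 0.331% in any 2-cell library. Whether RNA of Oog1 itself is lost after fertilisation was not tested.

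**Figure D2:**
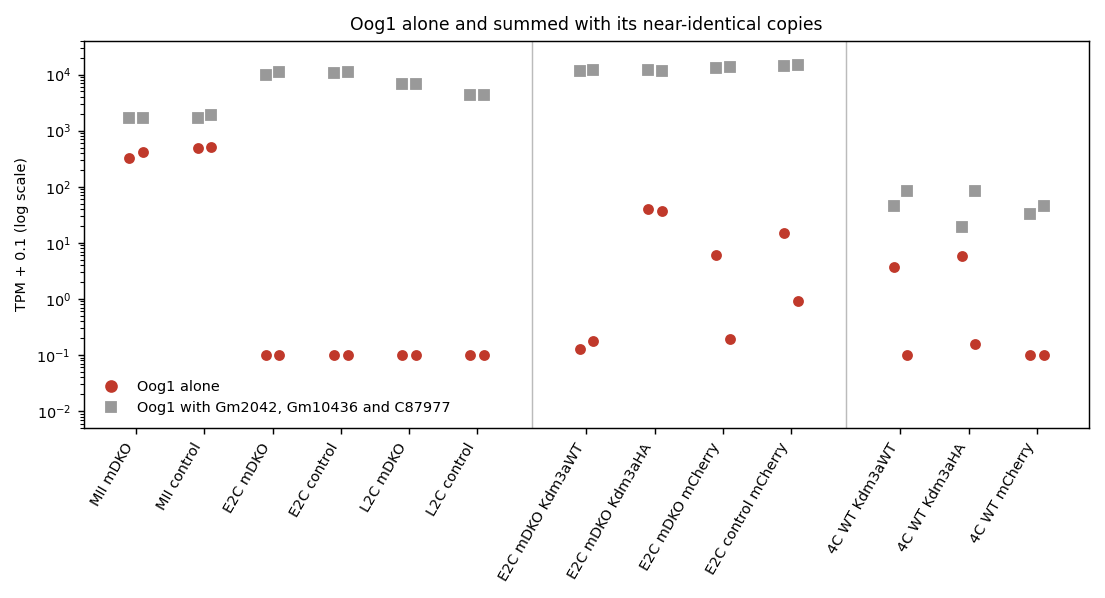
TPM + 0.1 (log axis) of Oog1 alone (red circles) and of Oog1 summed with Gm2042, Gm10436 and C87977 (grey squares) in each of the 26 libraries. The sum was at or above 4305 TPM in every 2-cell library, where Oog1 alone did not exceed 39.7 TPM.

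The other genes were checked the same way. Oog2 has a copy in Gm13084 (98.03% identical over 90.2% of the transcript), and made up 11.5% and 11.02% of their sum in control oocytes and 36.1% and 36.8% in control L2C embryos. BC061212 has a transcript identical to that of Gm7978, with the same TPM in all 26 libraries, and A430089I19Rik is 97.35% identical to it; other copies of it are not used here. Gm12794 has a copy in Gm12800 (96.56% identical), which is not used here. Values of these genes are uncertain as to which copy gave the reads. Oog3, Oog4, B020004J07Rik, Pramel6 and Pramel7 have no copy at or above 95% identity over 90% of the transcript.

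In MII oocytes, 1 of the 9 genes was called different in mDKO oocytes. Oog4 had 100.2 and 94.1 TPM in mDKO oocytes, against 145 and 142 TPM in control oocytes, with no overlap. It was the single call, lower by a log2 fold change of -0.56 ± 0.09 (adjusted p = 0.0358, limma with Benjamini-Hochberg adjustment over 10765 genes, of which 4.25% were called, 3.41% lower). Of the 9 genes, 5 reached the level needed for the test (1 TPM in at least 2 libraries). Oog1 differed by -0.42 ± 0.12 (adjusted p = 0.122, and 0.012 with a replicate block), and its sum with copies by -0.08 ± 0.07 (adjusted p = 0.573). Oog3 had 4341 and 3826 TPM in mDKO oocytes and 3649 and 3523 TPM in control oocytes (0.18 ± 0.08, adjusted p = 0.228). The call of Oog4 was lost with each single library left out (adjusted p = 0.0864 to 0.154), with size-factor scaling (0.0591), without the filter on low TPM (0.0705) and with 1 spread for all 12 uninjected libraries (0.132).

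In E2C embryos, the 5 genes that were not loaded were all lower in mDKO embryos, and none of the 3 loaded genes tested was called, Oog1 being too low to test. B020004J07Rik had 2.16 and 1.99 TPM in mDKO embryos, against 17.7 and 22.4 TPM in controls. Gm12794 had 8.91 and 8.18 TPM in mDKO embryos, against 26.7 and 49.4 TPM in controls. BC061212 had 9.18 and 7.09 TPM in mDKO embryos, against 27.5 and 32.6 TPM in controls. In each of these genes both mDKO libraries lay well under both control libraries. Pramel6 had 1.44 and 1.28 TPM in mDKO embryos, against 6.03 and 5.38 TPM in controls, and Pramel7 had 1.34 and 0.900 TPM, against 5.76 and 3.52 TPM. Both of these genes were near 1 TPM in mDKO embryos and low in controls too. For Pramel7 only the control group had both libraries at 1 TPM or more. It thus passed the filter through the controls, which left it open to a lower call alone.

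On the log2(TPM + 1) scale the mDKO over control changes at E2C were -2.77 ± 0.24 for B020004J07Rik (adjusted p = 0.000357), -1.97 ± 0.28 for Gm12794 (0.00352), -1.77 ± 0.22 for BC061212 (0.00192), -1.51 ± 0.25 for Pramel6 (0.00717) and -1.39 ± 0.30 for Pramel7 (0.0191), all from limma adjusted over 11140 genes. Of those genes 8.99% were called lower and 5.38% higher. BC061212 summed with its copies fell by 1.97 on the log2 scale (adjusted p = 0.000218), with sums of 76.6 and 72.5 TPM in mDKO embryos and 264 and 328 TPM in controls. The calls of Pramel6 and Pramel7 were lost when either control library was left out (adjusted p = 0.0633 to 0.178) and without the filter (0.0613 and 0.105), where that of Gm12794 was at 0.0505.

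The loaded genes at E2C lay close together. Oog3 had 5778 and 8239 TPM in mDKO embryos and 6728 and 7039.6 TPM in controls, and Oog4 had 839.6 and 1390.1 TPM in mDKO embryos and 1229 and 1089.8 TPM in controls, so the groups overlapped in both. Oog2 had 537 and 562 TPM in mDKO embryos and 440.0 and 495 TPM in controls, without overlap. The changes were 0.00 ± 0.15 for Oog3 (adjusted p = 0.992), -0.10 ± 0.21 for Oog4 (0.799) and 0.23 ± 0.12 for Oog2 (0.235). The mDKO replicate 2 library was the higher in Oog3 and Oog4, and without it Oog4 was called lower (-0.46, adjusted p = 0.00316), whereas without the mDKO replicate 1 its change was 0.26 (adjusted p = 0.141). The sum of Oog1 and its copies was 9745 and 11184 TPM in mDKO embryos and 10582 and 10992 TPM in controls (-0.05 ± 0.10, adjusted p = 0.798).

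In L2C embryos, 3 of the 4 loaded genes were higher in mDKO embryos, and Oog1, listed at 0 in both groups, was not tested. Oog2 had 184 and 198 TPM in mDKO embryos, against 87.1 and 82.6 TPM in controls. Oog3 had 10091 and 9203 TPM in mDKO embryos, against 4930.4 and 4851 TPM in controls. Oog4 had 114 and 126 TPM in mDKO embryos, against 64.7 and 66.7 TPM in controls. All 3 were higher in both mDKO libraries than in both controls, by 1.16 ± 0.12 for Oog2 (adjusted p = 0.000497), 0.98 ± 0.10 for Oog3 (0.000495) and 0.86 ± 0.12 for Oog4 (0.00185, limma over 12606 genes). Of those genes 42.4% were called, 19.1% higher and 23.3% lower, so a call was common at this stage. The sum of Oog1 with its copies was 6769 and 6885 TPM in mDKO embryos and 4340.2 and 4305 TPM in controls, higher by 0.66 ± 0.09 (adjusted p = 0.00166).

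The 5 genes that were not loaded split at L2C. B020004J07Rik had 101 and 77.7 TPM in mDKO embryos, against 54.6 and 38.8 TPM in controls (0.93 ± 0.20, adjusted p = 0.0103). Gm12794 had 78.3 and 55.0 TPM in mDKO embryos, against 42.6 and 30.5 TPM in controls (0.85 ± 0.22, adjusted p = 0.0207). Both genes, which lie near each other on chromosome 4 and were lowest against control at E2C, were higher than control at L2C. Pramel6 had 115 and 95.6 TPM in mDKO embryos, against 199.7 and 155 TPM in controls (-0.74 ± 0.16, adjusted p = 0.00991). Pramel7 had 105 and 109.7 TPM in mDKO embryos, against 168 and 164 TPM in controls (-0.63 ± 0.11, adjusted p = 0.00463). Pramel6 and Pramel7 were therefore lower at both 2-cell stages, at L2C from levels far above those at E2C. BC061212 had 3.99 and 2.03 TPM in mDKO embryos and 6.15 and 4.01 TPM in controls, and was not called (-0.62 ± 0.33, adjusted p = 0.165). Its sum with copies was called lower (-0.74 ± 0.20, adjusted p = 0.0239). The call of Gm12794 was lost without the mDKO library replicate 1 or the control library replicate 2 (adjusted p = 0.0858 and 0.0853), and without the filter (0.0674).

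**Figure D3:**
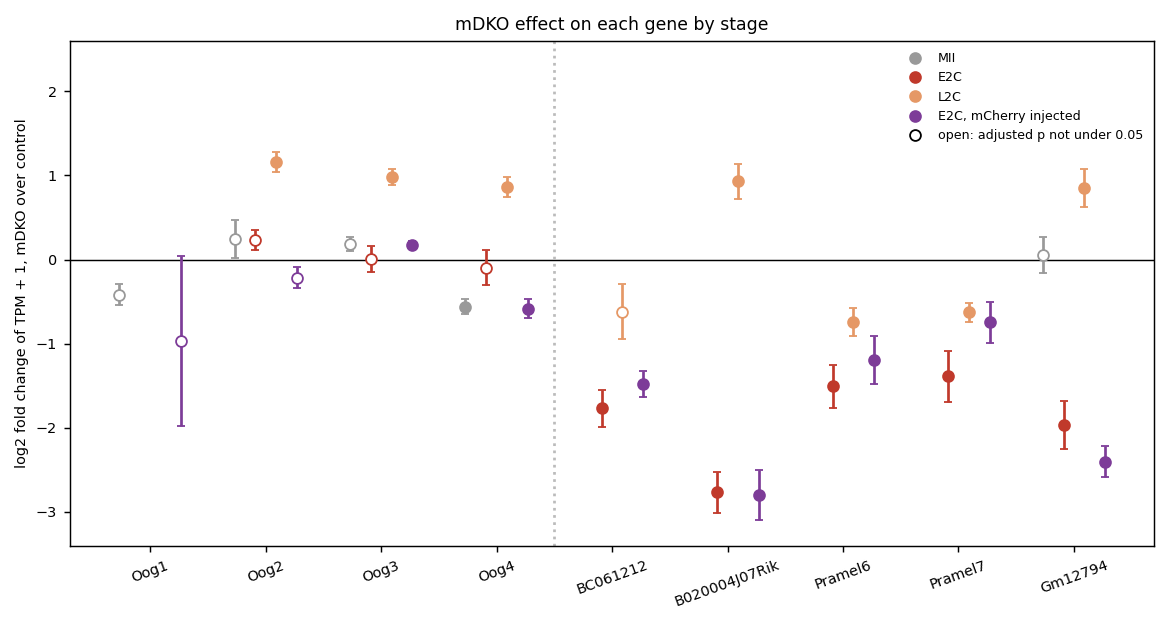
Log2 fold change of TPM + 1, mDKO over control, for each gene at MII, E2C and L2C without injection and at E2C with mCherry, with bars of ± 1 SE; filled points passed an adjusted p of 0.05 in limma, open points did not, and a missing point was not tested. Left of the dotted line, Oog2, Oog3 and Oog4 were higher at L2C. Right of it, the 5 other genes were lower at E2C in both experiments, where Pramel7 passed the filter through its controls.

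Whether the mDKO effect differed between L2C and E2C was tested as an interaction over the 12 uninjected libraries. It was called for 6 of the 9 genes, against 25.7% of 14316 genes. Oog1 passed the filter through its MII level alone and was at or near 0 in every 2-cell library of this fit, so its value was fixed in advance. The spread was shared with the MII libraries, which were made with another kit, and a fit on the 2-cell libraries alone was not run. The L2C effect minus the E2C effect was 3.69 ± 0.31 for B020004J07Rik (adjusted p = 4.76e-05), 2.82 ± 0.40 for Gm12794 (0.00074), 1.15 ± 0.38 for BC061212 (0.0476), 0.97 ± 0.20 for Oog3 (0.00474), 0.96 ± 0.27 for Oog4 (0.0237) and 0.92 ± 0.26 for Oog2 (0.0237). For Pramel6 it was 0.76 ± 0.27 (adjusted p = 0.0572) and for Pramel7 0.76 ± 0.30 (0.0865), and the median over all genes was 0.09. With size-factor scaling the interaction was called for B020004J07Rik and Gm12794 only, with Oog3 at an adjusted p of 0.0518, Oog2 at 0.0711, Oog4 at 0.0821 and BC061212 at 0.0854. Without the control L2C replicate 2 library, 3 genes were called. Over 13 alternatives the call was lost in 9 for BC061212, 6 for Oog2, 5 for Oog4, 1 for Oog3 and 0 for B020004J07Rik and Gm12794.

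Stage markers moved with these differences. At E2C each early 2-cell marker was lower and each oocyte marker higher in both mDKO libraries than in both controls, and at L2C the early 2-cell markers and all oocyte markers but Zp3 were higher. In E2C embryos the 5 early 2-cell markers (Zscan4d, Zscan4c, Tcstv3, Tcstv1 and Zfp352) summed to 226 to 230.4 TPM in mDKO embryos and 685 to 963 TPM in controls, and the 5 oocyte markers (Zp3, Gdf9, Bmp15, Nlrp5 and H1foo) to 3300 to 3476 TPM in mDKO embryos and 1931 to 1982 TPM in controls. At L2C the early 2-cell markers summed to 1327 to 1553 TPM in mDKO embryos and 421 to 569 TPM in controls, and the oocyte markers to 1272 to 1468 TPM in mDKO embryos and 512 to 596 TPM in controls. Zp3 went the other way at L2C, with 62.9 and 63.1 TPM in mDKO embryos and 103 and 101 TPM in controls. The 11 cumulus and granulosa markers summed to 194 to 234 TPM in mDKO E2C embryos and 110 to 116 TPM in controls, with Amh and Inhbb at 0 in both, and to 99.5 to 100.2 TPM in mDKO L2C embryos and 47.2 to 51.1 TPM in controls. Most of these sums was Serpine2, which at E2C had 166 and 202 TPM in mDKO embryos and 89.2 and 85.1 TPM in controls. The 6 sperm markers summed to 12.1 to 13.7 TPM in mDKO E2C embryos and 37.9 to 52.6 TPM in controls, with Prm1 and Tnp2 at 0 in both, and most of that sum was Prm2, with 8.998 and 10.7 TPM in mDKO embryos and 34.9 and 48.3 TPM in controls. The 5 blood markers summed to 50.6 to 54.6 TPM in mDKO L2C embryos and 295 to 349.5 TPM in controls, nearly all of it Hba-a1 and Hba-a2, with Hbb-bs at 0 in both. The part of developmental timing or of other cells in the results was not tested.

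The same split was looked for in 39 other PRAME family genes, found by name or by a fixed list of symbols. Of these, 14 had 10 TPM or more in control MII oocytes and 25 did not. Relatives in sequence that were found in neither way, among them Gm2042, Gm16513, Gm3286 and Gm6367, were not counted. The list was made with results of these data known. Some of the 39 genes share reads with each other, and Gm13040 and Gm13057 have the same TPM in all 26 libraries. A further 5 of the 39 are the near-identical copies Gm7978 and A430089I19Rik of BC061212, C87977 and Gm10436 of Oog1 and Gm13084 of Oog2. The counts thus in part repeat values of BC061212, Oog1 and Oog2. At E2C, 10 of the 19 tested genes that were not loaded were lower in mDKO embryos and 0 were higher, against 8.99% lower and 5.38% higher of all genes tested, with a median log2 fold change of -1.38. Of the 14 loaded genes, 2 were lower and 2 higher, with a median of -0.18, and over all genes the median was -0.01. The largest changes called were those of Gm13043 (8.03 TPM in mDKO and 51.3 TPM in control embryos on average, -2.87 ± 0.54, adjusted p = 0.0114), Gm13078 (-2.28 ± 0.21, adjusted p = 0.000488) and Gm12789 (-2.09 ± 0.31, adjusted p = 0.00381). Gm12789 and Pramel5, both called lower, reached 1 TPM in control embryos only, so the filter left them open to a lower call alone. Without the filter, 7 of 23 genes that were not loaded were lower and 0 higher. With the copies summed into BC061212, Oog1 and Oog2 and taken out of the list, 8 of 17 genes that were not loaded were lower and 0 higher. Of 11 loaded genes, 2 were then lower and 1 higher. Without the control E2C library replicate 1 the 10 lower calls became 5, and without replicate 2 they became 4. Of the loaded genes, 8 were lower and 4 higher without the mDKO E2C replicate 2, and 0 were called without either control library or without the filter.

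At L2C, 11 of the 14 loaded family genes were higher in mDKO embryos and 0 lower, with a median of 1.19, against a median of 0.00 over all genes, of which 19.1% were called higher and 23.3% lower. Of the 22 tested genes that were not loaded, 7 were higher and 8 lower, with a median of 0.01, or 31.8% and 36.4%, so calls lay in both directions, as over all genes. With the copies of the 9 genes taken out, 8 of 11 loaded genes were higher and 0 lower, and of 20 others 7 were higher and 7 lower. Gm13040 and Gm13057, identical in TPM, are both among the 7 higher calls of the 22 and were not taken out. The largest changes called were those of BC080695 (58.5 TPM in mDKO and 12.9 TPM in control embryos on average, 2.14 ± 0.24, adjusted p = 0.00072), AA792892 (610.2 TPM in mDKO and 164 TPM in control embryos, 1.89 ± 0.10, adjusted p = 0.000146) and Gm13043 (122 TPM in mDKO and 32.0 TPM in control embryos, 1.88 ± 0.23, adjusted p = 0.000913). Across the alternatives run, 8 to 12 loaded genes were higher and 0 lower; among the others the 7 higher calls became 3 without the mDKO L2C replicate 1, and 4 without the control replicate 1, without the filter or with 1 fit over 12 libraries. The interaction of stage and genotype was called higher for 10 of 14 loaded genes and for 12 of 22 others, and lower for 0 and 2, against 13.2% higher and 12.5% lower of all 14316 genes. The 12 became 7 with a pseudocount of 0.1, and 8 without the filter or without replicate 1 of the mDKO E2C, replicate 2 of the control E2C or replicate 1 of the mDKO L2C libraries; with the copies taken out, the calls were higher for 7 of 11 loaded genes and 10 of 20 others. An exact match to the promoter block shared by Oog1 to Oog4 was held by 3 of the 9 other loaded family genes with a promoter in the table (C87977, Gm13023 and Gm13084). Of these, C87977 and Gm13084 are copies of Oog1 and Oog2, genes that defined the block. An exact match was held by 0 of the 21 that were not loaded, and near matches were not searched for.

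**Figure D4:**
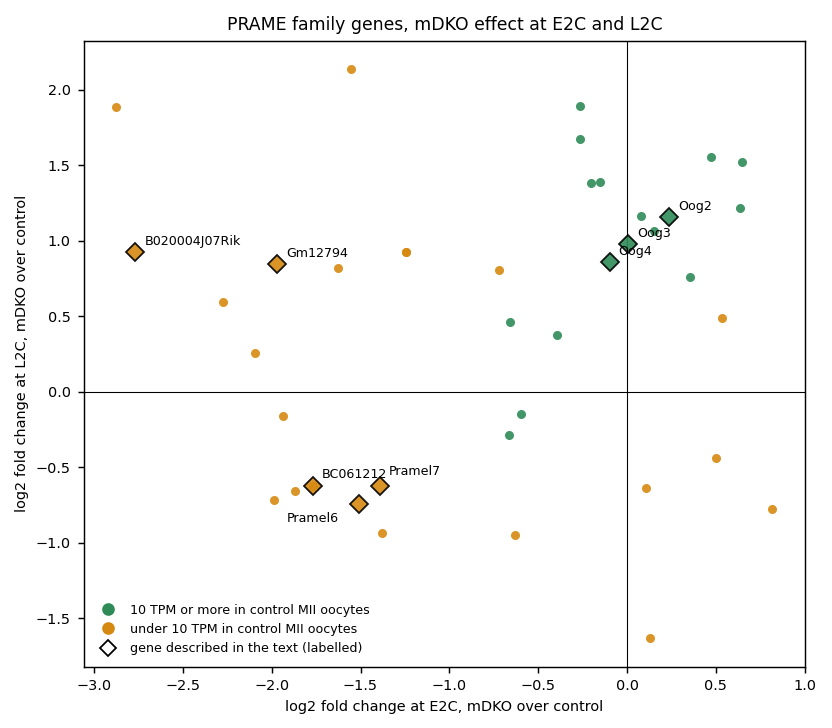
Log2 fold change of TPM + 1, mDKO over control, at E2C (horizontal) and L2C (vertical) for PRAME family genes tested at both stages; green points had 10 TPM or more in control MII oocytes, orange points less, and labelled diamonds are the genes of the text. The diamonds of Oog2, Oog3 and Oog4 sit near 0 at E2C and between 0.86 and 1.16 at L2C, while B020004J07Rik and Gm12794 lie to the upper left and BC061212, Pramel6 and Pramel7 to the lower left.

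The injected E2C embryos gave a separate set of libraries for the mDKO effect. B020004J07Rik had 0.925 and 2.89 TPM in mDKO embryos with mCherry, against 16.0 and 20.3 TPM in control embryos with mCherry. Gm12794 had 5.95 and 5.87 TPM in mDKO and 35.0 and 36.1 TPM in control embryos. BC061212 had 16.3 and 12.9 TPM in mDKO and 43.2 and 41.4 TPM in control embryos. The low levels of these genes in mDKO embryos were thus seen again, with no overlap. Pramel6 had 0.925 and 1.35 TPM in mDKO and 4.22 and 3.55 TPM in control embryos, and Pramel7 had 0.908 and 0.850 TPM in mDKO and 2.02 and 2.28 TPM in control embryos. Among the injected groups only control embryos had both Pramel7 libraries at 1 TPM or more, so here too it was open to a lower call alone. The changes were -2.80 ± 0.30 for B020004J07Rik (adjusted p = 0.000157), -2.40 ± 0.18 for Gm12794 (2.9e-05), -1.48 ± 0.16 for BC061212 (0.00014), -1.20 ± 0.29 for Pramel6 (0.00916) and -0.75 ± 0.24 for Pramel7 (0.0346), all from limma over 10960 genes, of which 46.9% were called, 20% lower and 26.9% higher. Pramel7 lost its call with any 1 library of the 2 groups left out (adjusted p = 0.0841 to 0.138), and Pramel6 without replicate 1 of the mDKO or the control embryos (0.0644 and 0.0541).

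Among the loaded genes with mCherry, Oog4 had 1245 and 1261 TPM in mDKO embryos, against 1822 and 1946 TPM in controls (-0.59 ± 0.11, adjusted p = 0.00317). Oog3 had 9893 and 10045 TPM in mDKO embryos, against 8827 and 8861 TPM in controls (0.17 ± 0.05, adjusted p = 0.0163). Oog2 had 459 and 469.9 TPM in mDKO embryos and 529.8 and 549 TPM in controls (-0.21 ± 0.12, adjusted p = 0.183). Oog4 was thus lower and Oog3 slightly higher, which was not called in embryos without injection. The small change of Oog3 lost its call without replicate 1 or 2 of the mDKO embryos (adjusted p = 0.0823 and 0.115), with size-factor scaling (0.0879) and without the filter (0.0931). Early 2-cell markers summed to 320 to 353 TPM in mDKO embryos and 1084 to 1258 TPM in controls. Oocyte markers summed to 4198 to 4299 TPM in mDKO embryos and 2690 to 2958 TPM in controls. Most of that gap was H1foo, with 1799 and 1687 TPM in mDKO embryos and 409 and 468 TPM in controls. Zp3, Gdf9 and Nlrp5 were higher in mDKO embryos too. Bmp15 went the other way, with 1769 and 1804 TPM in mDKO embryos and 1817 and 1983 TPM in controls. The 11 cumulus and granulosa markers summed to 340.1 to 351 TPM in mDKO embryos and 76.6 to 84.1 TPM in controls, with Amh and Foxl2 at 0 in both. Serpine2 made up 312 and 307 TPM of this in mDKO embryos and 62.2 and 51.2 TPM in controls. The 6 sperm markers summed to 5.46 to 8.86 TPM in mDKO embryos and 33.1 to 44.2 TPM in controls. The part of these markers in the results was not tested. Of all genes tested in this comparison, 20% were called lower and 26.9% higher. Among the other family genes tested, Gm12789 and Pramel5 had both libraries at 1 TPM or more in control embryos only. The filter thus left these genes open to a lower call alone. Of the other family genes that were not loaded, 13 of 18 tested were lower and 0 higher (11 of 16 and 0 with the copies taken out), and of the 14 loaded genes 7 were lower and 2 higher (6 and 1 of 11 with the copies taken out), the 7 becoming 1 without the mDKO mCherry replicate 1, 3 without its replicate 2, 4 without the control mCherry replicate 1 and 3 without its replicate 2.

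In mDKO embryos with Kdm3aWT, 1 of the 9 genes was called against those with mCherry. B020004J07Rik had 4.86 and 5.69 TPM with Kdm3aWT, against 0.925 and 2.89 TPM with mCherry, and was the single gene of the 9 called (1.19 ± 0.30, adjusted p = 0.0373). Of all 10960 genes, 11.8% were called, 0.949% higher and 10.8% lower. That call was lost without the mCherry replicate 1 or either Kdm3aWT library (adjusted p = 0.105 to 0.224), with a pseudocount of 0.1 (0.0552) and without the filter (0.0912). Gm12794 had 4.26 and 5.20 TPM with Kdm3aWT and 5.95 and 5.87 TPM with mCherry (-0.27 ± 0.18, adjusted p = 0.358). BC061212 had 14.0 and 13.1 TPM with Kdm3aWT and 16.3 and 12.9 TPM with mCherry (-0.09 ± 0.16, adjusted p = 0.752, and 0.13 with size-factor scaling). Pramel6 had 0.497 and 1.34 TPM with Kdm3aWT and 0.925 and 1.35 TPM with mCherry, and Pramel7 0.560 and 1.29 TPM with Kdm3aWT and 0.908 and 0.850 TPM with mCherry. None of these 4 genes was called. The early 2-cell markers summed to 524 to 589 TPM with Kdm3aWT, against 320 to 353 TPM with mCherry, and their part in the results was not tested.

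Set against control embryos with mCherry, the embryos with Kdm3aWT were still lower in all 5 genes. B020004J07Rik averaged 5.27 TPM with Kdm3aWT and 18.1 TPM in control embryos (-1.60 ± 0.30, adjusted p = 0.00305), and Gm12794 averaged 4.73 TPM and 35.6 TPM (-2.68 ± 0.18, adjusted p = 2.21e-05). BC061212 differed by -1.57 ± 0.16 (adjusted p = 0.00013), Pramel6 by -1.38 ± 0.29 (0.00495) and Pramel7 by -0.74 ± 0.24 (0.0363). Pramel7 passed the filter of this fit through the control libraries. In this comparison 46.6% of genes were called, 29.6% lower and 17% higher. Oog2 and Oog4 were lower as well, at -0.64 ± 0.12 (adjusted p = 0.00351) and -0.51 ± 0.11 (0.00681), and Oog3 was higher at 0.29 ± 0.05 (0.00141). The comparisons among injected groups share libraries, so their values are not independent of each other. The call of Pramel7 was lost under 7 of its 9 alternatives, among them the replicate block (adjusted p = 0.0514).

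**Figure D5:**
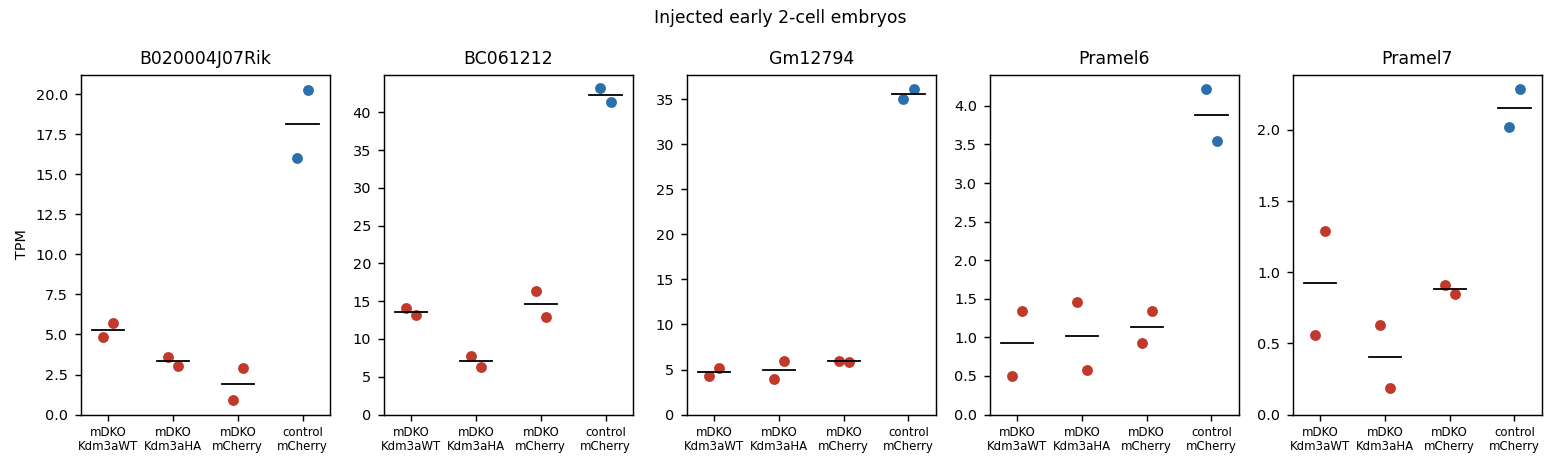
TPM of the 5 genes that were not loaded in injected E2C embryos, 1 point per library and a line at the mean of each group of 2, on axes that start at 0. Control embryos with mCherry (blue) lie above all mDKO groups in each gene, and mDKO embryos with Kdm3aWT lie near those with mCherry, with B020004J07Rik at 4.86 and 5.69 TPM, above 0.925 and 2.89 TPM.

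With Kdm3aHA, BC061212 and Oog1 were called against mCherry, each in a call that some alternatives lost. BC061212 had 7.81 and 6.29 TPM with Kdm3aHA, against 16.3 and 12.9 TPM with mCherry (-0.95 ± 0.16, adjusted p = 0.00625), where 10.8% of genes were called, 9.29% lower and 1.54% higher. Its sum with copies was 74.4 and 61.5 TPM with Kdm3aHA, against 116 and 96.9 TPM with mCherry (-0.64 ± 0.12, adjusted p = 0.0126). Kdm3aWT against Kdm3aHA was called higher for BC061212 (0.86 ± 0.16, adjusted p = 0.028; 0.93 ± 0.12 for the sum, adjusted p = 0.0146), where 3.29% of genes were called, 1.32% higher and 1.97% lower. BC061212 was thus lower with Kdm3aHA than with either other injection of mDKO embryos, though the first call was lost without the mCherry replicate 1 (adjusted p = 0.0922) and the second without Kdm3aWT replicate 1 or either Kdm3aHA library (0.0834 to 0.128). B020004J07Rik had 3.61 and 3.02 TPM with Kdm3aHA, and its difference between Kdm3aWT and Kdm3aHA was 0.54 ± 0.30 (adjusted p = 0.32). The early 2-cell markers summed to 461 to 498 TPM with Kdm3aHA, 524 to 589 TPM with Kdm3aWT and 320 to 353 TPM with mCherry. Most of the sum with Kdm3aHA was Tcstv1, at 292 and 298 TPM, against 168 and 181 TPM with mCherry. Zscan4c was lower with Kdm3aHA (24.4 and 39.1 TPM) than with mCherry (44.6 and 51.2 TPM), and the other early 2-cell markers were higher. The cumulus and granulosa markers summed to 235 to 248.96 TPM with Kdm3aHA, 248 to 253 TPM with Kdm3aWT and 340.1 to 351 TPM with mCherry. The part of all these markers in the results was not tested.

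Oog1 had 39.7 and 36.4 TPM with Kdm3aHA, against 5.93 and 0.0949 TPM with mCherry (3.82 ± 1.005, adjusted p = 0.0455), and 0.0268 and 0.0787 TPM with Kdm3aWT. That call was lost with a pseudocount of 0.1 (adjusted p = 0.0883), without the filter (0.114), without the mCherry replicate 2 (2.49, adjusted p = 0.246) and without Kdm3aHA replicate 1 or 2 (0.171 and 0.13). The difference between Kdm3aWT and Kdm3aHA was -5.21 ± 1.005 (adjusted p = 0.0341), a call lost without the filter (0.121) and with any 1 library of the 2 groups left out (0.0502 to 0.175). Its sum with Gm2042, Gm10436 and C87977 was 12005 and 11740.0 TPM with Kdm3aHA, 11458 and 12066 TPM with Kdm3aWT and 12964 and 13389 TPM with mCherry. The sum differed by -0.15 ± 0.05 between Kdm3aHA and mCherry (adjusted p = 0.107) and by -0.01 ± 0.05 between Kdm3aWT and Kdm3aHA (adjusted p = 0.897). At most 0.331% of the sum was assigned to Oog1 in these libraries, and neither call of Oog1 was seen in the sum.

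Oog2 had 317 and 379 TPM with Kdm3aWT, 413 and 521 TPM with Kdm3aHA and 459 and 469.9 TPM with mCherry. Kdm3aWT against mCherry gave -0.42 ± 0.12 (adjusted p = 0.0607), and the sum of Oog2 and Gm13084 was called lower (-0.65 ± 0.13, adjusted p = 0.0174). The Kdm3aWT libraries were the lowest for Oog2, without overlap. Oog3 and Oog4 were not called in any comparison among mDKO groups (with size-factor scaling, Oog3 was called higher with Kdm3aWT than with mCherry, adjusted p = 0.0133, and Oog4 with Kdm3aHA, adjusted p = 0.0249), with Oog3 between 9893 and 11043 TPM and Oog4 between 1183 and 1697 TPM. Of the other family genes, Kdm3aWT against mCherry gave 4 higher and 0 lower of 18 that were not loaded, and 0 higher and 5 lower of 14 loaded, against 0.949% higher and 10.8% lower of all genes tested. With the copies taken out these were 4 higher of 16 and 3 lower of 11. Gm13078 led with 23.3 TPM on average with Kdm3aWT and 8.94 TPM with mCherry (1.29 ± 0.14, adjusted p = 0.00109), followed by Pramef25 (1.07 ± 0.19, adjusted p = 0.00907) and BC080695 (0.99 ± 0.15, adjusted p = 0.00575). Leaving out either mCherry library reduced the 4 higher calls to 1 and the 5 lower calls to 0; without the Kdm3aWT replicate 1 there were 2 higher and 3 lower, and with size-factor scaling 5 higher and 2 lower. The median over all genes was -0.19 for Kdm3aWT against mCherry. Kdm3aHA against mCherry gave 2 higher and 2 lower of the 18 genes not loaded. Of the 14 loaded, 1 was higher and 3 lower, against 1.54% and 9.29% of all genes. Kdm3aWT against Kdm3aHA gave 4 higher and 0 lower of the 18, and 0 higher and 1 lower of the 14. Of all genes, 1.32% were higher and 1.97% lower there. With the copies taken out, Kdm3aWT against Kdm3aHA gave 2 higher of 16 and 0 calls of 11.

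At 4C, wild-type embryos injected with Kdm3aWT, Kdm3aHA or mCherry held mainly Pramel6 and Pramel7. Pramel6 had 499.8 and 517 TPM with Kdm3aWT, 488 and 473 TPM with Kdm3aHA, and 479 and 289 TPM with mCherry. Pramel7 had 645 and 718 TPM with Kdm3aWT, 590.4 and 590.4 TPM with Kdm3aHA, and 655 and 202 TPM with mCherry. The low values came from the mCherry replicate 2. B020004J07Rik had 70.7 and 119 TPM with Kdm3aWT, 14.6 and 43.8 TPM with Kdm3aHA, and 27.6 and 2.26 TPM with mCherry. Gm12794 had 7.91 and 0.906 TPM with Kdm3aWT, 0 and 0.245 TPM with Kdm3aHA, and was listed at 0 with mCherry. Oog1, Oog2, Oog4 and BC061212 were at or under 5.61 TPM in every 4C library.

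No gene of the 9 was called at 4C, and neither was any of the 9669 genes tested (0%), by limma with either construct. At an unadjusted p under 0.05, 776 genes passed with Kdm3aWT and 264 with Kdm3aHA. B020004J07Rik with Kdm3aWT gave 3.27 ± 0.85 (adjusted p = 0.521). It was called without the Kdm3aWT replicate 1 or without the mCherry replicate 1 (adjusted p = 0.0306 in both), and without that mCherry library Pramel7 was called too (1.75, adjusted p = 0.0306). Without the mCherry replicate 1, that group rests on replicate 2 alone, the library with the fewest genes.

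Over the 13 group means of log2(TPM + 1), genes outside the family with the most similar profiles were found for each member among 11126 genes, as a description in which all groups share their libraries. Oog2 was most like Fbxw27 (Pearson r = 0.998), Oog3 most like Tcl1 (0.997) and Oog4 most like Fbxw15 (0.995). Pramel6 was most like Trim43a (0.998), Pramel7 most like Haus2 (0.998), BC061212 most like Mb (0.989), B020004J07Rik most like Scd3 (0.963) and Gm12794 most like Gm428 (0.961). Among the 9 genes, the profiles of Pramel6 and Pramel7 were the closest pair (r = 0.998), followed by Oog2 and Oog4 (0.981) and Oog2 and Oog3 (0.966). B020004J07Rik and Gm12794, whose transcripts are 80.96% identical over 73.6% of that of B020004J07Rik, had r = 0.344 with each other.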

How the data were processed

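PolyA RNA of mouse oocytes and embryos was sequenced, and the authors deposited TPM per gene and library in 3 tables, which were normalized by library. RSEM 1.3.1 is listed in the submitters' processing notes beside SAMtools 1.9, STAR 2.7.10b, Bowtie2 2.3.4.1 and the build mm10, with no role for any of them. Per the labels' protocols, a TruSeq Stranded kit was used at MII, and SMART-Seq v4 or mRNA LP kits at E2C and 4C; the sources used here name no kit for L2C. TPM keeps no depth, so no counting interval is given. How the authors' estimates share reads among near-identical copies affects Oog1, Oog2, BC061212 and Gm12794.

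Tests used limma 3.58.1 in R 4.3.3 (lmFit, eBayes with trend) on log2(TPM + 1), two-sided, for genes with 1 TPM or more in at least 2 libraries of the fit, with Benjamini-Hochberg adjustment over all genes tested and calls at an adjusted p under 0.05. Such fold changes understate those of low genes. The fits were tested on simulated data with large changes in well-expressed genes only. The simulation therefore does not bear on small changes or on genes near 1 TPM. With 2 libraries per group, an exact permutation test cannot go below p = 0.333, and the labels do not say that the 2 pools were separate matings, so p-values may measure technical spread. Tests were made within a table; levels set beside each other across tables come from separate experiments. Alternatives were a pseudocount of 0.1, no filter, size-factor scaling, a replicate block, 1 fit over the 12 uninjected libraries, each library left out, and, chosen after seeing the data, near-identical copies summed. Copies were transcripts with at least 95% identity over at least 90% of the member's GENCODE M21 transcript (BLAST+ 2.17.0). All 9 genes are described; other family genes are named where they had the 3 largest changes called in a comparison, and genes outside the family where they were most like a member (at least 5 TPM in a group). The members and lists were chosen with earlier results of these data known, and the loaded class and 2 of the motifs (TATATA and the shared block) after these values or sequences had been seen.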

Additional observations from a re-analysis of the deposited data

Results flagged for a closer look

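In 6 genes the mDKO effect at L2C was found to be unlike that at E2C by the interaction test of limma. The L2C effect minus the E2C effect was 3.69 for B020004J07Rik and 2.82 for Gm12794 on the log2 scale, the genes that were lower than control at E2C and higher at L2C. It was 1.15 for BC061212, lower at E2C and not called at L2C. It was 0.97 for Oog3, 0.96 for Oog4 and 0.92 for Oog2, which were not called at E2C and were higher at L2C. Only the first 2 of these also passed with size-factor scaling. Groups of 2 libraries are too small for a test of single outlying libraries.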

How the results depend on the processing

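The single call at MII became 0 without the filter on low TPM, with size-factor scaling, with 1 fit over the 12 uninjected libraries and with each library left out (0 to 0). The 5 calls at E2C became 2 without the filter and 3 to 6 with a library left out. The 6 calls of the L2C minus E2C difference became 2 with size-factor scaling and 3 to 6 with a library left out. With mCherry, the 7 calls of mDKO against control became 4 to 6 with a library left out. For Kdm3aWT against mCherry, the 1 call became 0 with a pseudocount of 0.1 and without the filter, 2 with size-factor scaling and with copies summed, and 0 to 1 with a library left out. For Kdm3aHA against mCherry, the 2 calls became 1 with a pseudocount of 0.1, without the filter and with copies summed, and 1 to 2 with a library left out. For Kdm3aWT against Kdm3aHA, the 2 calls became 0 without the filter and 0 to 3 with a library left out. At 4C, the 0 calls with Kdm3aWT became 0 to 2. Where a group was left with 1 library, it was assumed to vary like the others. The counts at L2C, between control stages and of Kdm3aWT against control embryos stayed within 1.5 times under the alternatives run. The causes were not tested.

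Replicate numbers were not taken to pair samples, since the labels give them no shared origin. The correlation of replicate 1 deviations between groups ran from -0.0968 to 0.359, with the highest value at MII. The replicate block gave 2 calls at MII, where Oog1 came to an adjusted p of 0.012, 2 for Kdm3aWT against mCherry (Oog2 came to 0.0349) and 1 at 4C with Kdm3aWT (B020004J07Rik, 0.0222). Against control embryos with mCherry, Kdm3aWT gained Oog1 (0.0385) and lost Pramel7 (0.0514), and the block changed no other call.

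Changes of sign, all in values not called except those of Oog1 given for E2C against MII and for Kdm3aHA, were as follows. With copies summed, the log2 fold change was -0.027 for Oog2 at MII, 2.61 for Oog1 at E2C against MII, 0.29 for BC061212 with Kdm3aWT against mCherry, -0.15 for Oog1 with Kdm3aHA against mCherry and -0.29 for Oog2 with Kdm3aHA at 4C. With size-factor scaling, it was 0.13 for BC061212 with Kdm3aWT, 0.10 for Oog2 with Kdm3aHA, 0.074 for Gm12794 in Kdm3aWT against Kdm3aHA, -0.10 for Pramel6 with Kdm3aWT at 4C, and -0.42 for Oog3 and -0.074 for Pramel6 with Kdm3aHA at 4C. With a pseudocount of 0.1 it was -0.031 for Pramel7 with Kdm3aWT. With a library left out, the ranges that crossed 0 were -0.094 to 0.58 for Oog2 and -0.057 to 0.17 for Gm12794 at MII, -0.25 to 0.26 for Oog3 and -0.46 to 0.26 for Oog4 at E2C, and -0.44 to 0.42 for Gm12794 between control L2C and E2C. For mDKO against control with mCherry, Oog1 ran from -2.52 to 0.58. For Kdm3aWT against mCherry, the ranges were -0.083 to 0.24 for Oog4, -0.25 to 0.070 for BC061212, -0.51 to 0.14 for Pramel6 and -0.27 to 0.29 for Pramel7. For Kdm3aHA against mCherry, they were -0.17 to 0.16 for Oog2 and -0.43 to 0.21 for Pramel6. For Kdm3aWT against Kdm3aHA, they were -0.39 to 0.26 for Pramel6 and -0.27 to 0.21 for Gm12794. For Kdm3aHA at 4C, they were -0.081 to 1.54 for Oog2, -1.06 to 1.10 for Oog3, -0.11 to 3.02 for B020004J07Rik and -0.15 to 1.54 for Pramel7. Size-factor scaling moved the median of all genes by 0.18 in control E2C against MII, 0.19 in Kdm3aWT against mCherry, 0.16 in Kdm3aWT against control embryos, 0.10 in Kdm3aWT against Kdm3aHA, and -0.43 and -0.34 at 4C. TPM gives no depth, so what depth limits is unknown.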
